A study of Homo sapiens with 12 samples.

Results

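Regulators of G protein signaling (RGS) were followed through 9 genes, RGS1, RGS2, RGS3, RGS10, RGS12, RGS14, RGS16, RGS19 and RGS20, over the 4 drug conditions of an RNA-sequencing experiment in OPM-1, an established human multiple myeloma cell line. They are 9 of the 38478 genes in the deposited matrix, and all 9 reached the mean of 0.5 RPKM (read density per kilobase of gene, scaled to the library's total on genes) needed for testing. The list was set by name with earlier results of these data known, so all 9 passing this filter says nothing about the RGS family. RGS20 was chosen by its fall with AI-10-104, so that its values in AI-10-104 and DMSO samples are given as a description with no test. Cells were cultured for 48 h with DMSO as solvent, 0.1 μM of lenalidomide (LEN), 1 μM of AI-10-104, or both drugs (LEN+AI-10-104), and polyadenylated RNA was sequenced from 3 samples per condition, 12 in all, described as biological replicates. LEN directs the ubiquitin ligase adaptor Cereblon to the transcription factors IKZF1 and IKZF3, which are then degraded, and AI-10-104 keeps RUNX transcription factors from binding their partner CBFβ. Both drugs act on proteins, so that no gene in the matrix reads out the extent of inhibition directly. All values come from 1 cell line with no deletion or transgene named in the labels, and in bulk RNA of this kind fewer cells expressing a gene and less of its RNA per cell cannot be told apart.

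RGS proteins switch off signals from receptors that couple to heterotrimeric G proteins. A G protein alpha subunit is active while it holds GTP, and the RGS domain speeds up its GTP hydrolysis, after which alpha and beta-gamma subunits reassemble and signaling ends. In B cells and plasma cells, receptors of this kind read chemokines that guide migration and retention in lymphoid tissue and bone marrow. By subfamily, RGS1, RGS2, RGS3 and RGS16 belong to R4, RGS10, RGS12 and RGS14 to R12, and RGS19 and RGS20 to RZ.

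The libraries held 16352548 to 31386210 reads assigned to genes. The median depth was lowest for LEN+AI-10-104, at 19417027 reads, and highest for DMSO, at 30219883, with AI-10-104 at 23153105 and LEN at 28795905, and the part of depth in the results was not tested. Each sample's median correlation with the other 11 was between 0.987 and 0.990, and none stood apart on this measure. Counts over all genes nevertheless turned on AI-10-104 replicate 2, without which 443 and not 199 genes were called in AI-10-104 against DMSO, and 540 and not 0 in the interaction of the drugs. The identity of the cells was checked with markers: all 9 plasma cell and myeloma markers reached 0.5 RPKM, with sums of 1661 to 1969 RPKM per sample, and none of 11 markers of other blood and stromal cell types did, with sums of 0.248 to 0.904.

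In DMSO samples the 9 genes spanned a wide range of RPKM, a scale that corrects for gene length. RGS16 was the highest, at 26.2 ± 1.38 RPKM (SD, n = 3), followed by RGS10 at 12.9 ± 0.657 and RGS14 at 11.8 ± 0.984, whose ranges over samples overlapped. RGS1, which in B cells restrains the response to chemokines, reached 3.70 ± 0.371 RPKM and RGS3 2.74 ± 0.194. RGS12, RGS20 and RGS19 followed at 1.74 ± 0.0491, 1.71 ± 0.301 and 1.65 ± 0.0918 RPKM, with the ranges of neighbours in this order overlapping. RGS2 was the lowest, at 1.13 ± 0.0805 RPKM. RGS16 stood at the 77.2th percentile of all tested genes in DMSO and RGS2 at the 12.6th. The order depends on the gene length used, and the same reads were also divided by the exon lengths of GENCODE v44 in place of the deposited lengths. RGS1 then went from place 4 to place 8, since 4074 bases replace 1403, and RGS19 from 8 to 5, since 2028 bases replace 3941. No reads were recounted on the GENCODE exons, so these places show the weight of the length and are not levels in that annotation. In a comparison of a gene between conditions the length cancels in the ratio of RPKM, but it enters through the 0.5 RPKM filter and the 0.1 added to each value, which weigh most on low genes.

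RGS20, an RZ protein also called RGSZ1 that acts preferentially on the alpha subunit of Gz, was low in every sample that received AI-10-104. Its level was 1.41, 2.01 and 1.71 RPKM in the DMSO samples and 1.36, 1.80 and 1.57 RPKM in the LEN samples. It was 0.417, 0.322 and 0.357 RPKM with AI-10-104 and 0.394, 0.412 and 0.360 RPKM with LEN+AI-10-104. The 6 samples without AI-10-104 thus lay above the 6 samples with it, with no overlap, and LEN and DMSO samples overlapped. These levels rest on 86 to 198 reads without and 22 to 31 reads with AI-10-104. The mean with AI-10-104 was 21.4% of the DMSO mean and that with LEN+AI-10-104 was 22.8%, values for which no test is given because they share the DMSO samples that served to choose the gene.

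The LEN and LEN+AI-10-104 samples are not part of the comparison of AI-10-104 with DMSO, but RGS20 was picked with earlier results of all conditions known, so the test between them is not independent evidence of its fall. In LEN+AI-10-104 against LEN the mean was 24.7%, a log2 fold change of -1.77 ± 0.15 (SE, 95% interval -2.10 to -1.44, n = 3 per condition) on log2(RPKM + 0.1), with an adjusted p of 4.4e-05 in limma with Benjamini-Hochberg adjustment. RGS20 was called, that is, it passed an adjusted p of 0.05 and an absolute log2 fold change of 0.32, the rule used throughout. It remained called without each single sample, with values of -1.87 to -1.68. Since the added 0.1 understates the change of a low gene, the same comparison on the recovered reads with limma's voom gave -2.02. The LEN mean was 92.3% of the DMSO mean, and the LEN+AI-10-104 mean was 106.5% of the AI-10-104 mean, with overlapping samples in both. No test is given for these values or for an interaction of the drugs on RGS20, since they use the DMSO or AI-10-104 samples that served to choose it.

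Calls were counted over the 8 genes other than RGS20, whose own values are given above. In LEN against DMSO none of the 8 was called, beside 0.649% of all 11241 tested genes. In AI-10-104 against DMSO none of the 8 was called, beside 1.77% of all genes. In LEN+AI-10-104 against DMSO 1 of the 8 was called, RGS16, beside 2.94% of all genes. In LEN+AI-10-104 against LEN none of the 8 was called, beside 1.68%, and in LEN+AI-10-104 against AI-10-104 none was, beside 3.63%. The median log2 fold change of the 8 genes was between -0.02 and 0.11 in these 5 comparisons, beside medians of -0.0021 to 0.0226 over all tested genes. In limma no gene of any kind was called for an interaction of the drugs, 0.0% of all tested, although 1621 genes had an unadjusted p under 0.05, and voom called 3. None of the 8 genes was called for an interaction without AI-10-104 replicate 2 either, beside 540 of all 11241 tested genes in that fit.

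**Figure D1:**
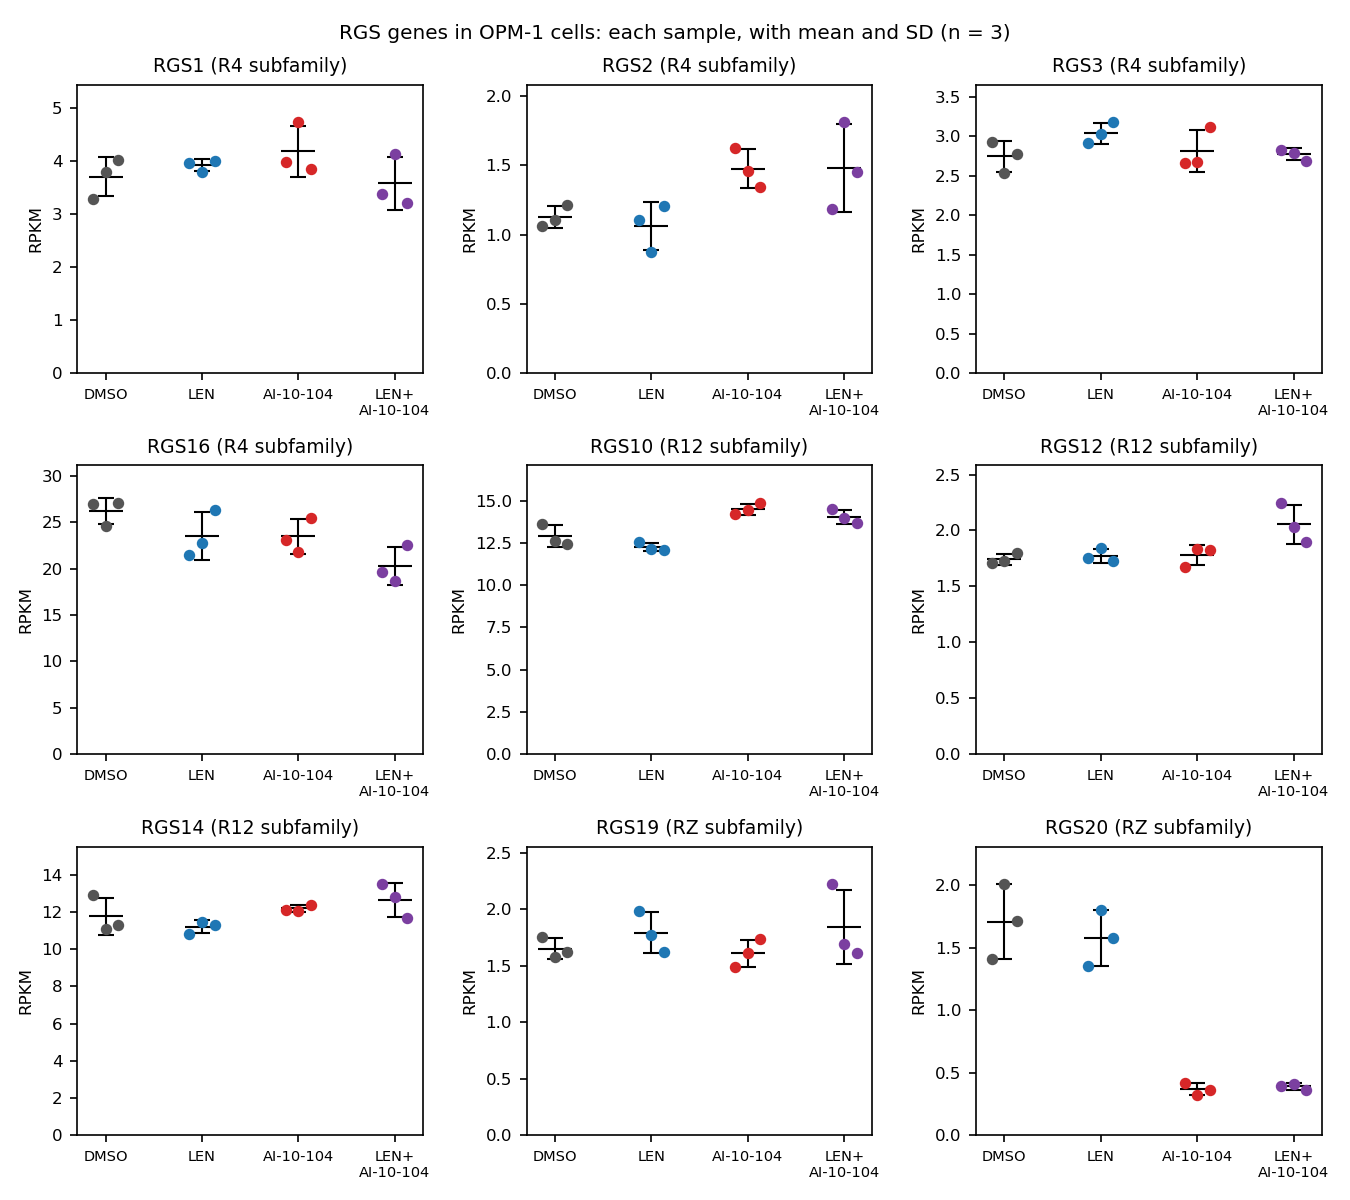
RPKM (vertical axes, from 0) of the 9 RGS genes in each of the 12 samples, by condition, with the mean and SD of 3 samples as bars and the subfamily in the title of each panel. RGS20 lies at 1.36 RPKM or more in every sample without AI-10-104 and at 0.417 or less in every sample with it, while the other panels show smaller shifts.

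Of the R4 genes, RGS16, a regulator of Gi and Gq alpha subunits, was lower with the combination. DMSO samples had 27.0, 24.7 and 27.1 RPKM, LEN samples 21.4, 22.8 and 26.4 RPKM, and AI-10-104 samples 23.1, 21.8 and 25.5 RPKM. With LEN+AI-10-104 it was 19.6, 18.6 and 22.6 RPKM, below all 3 DMSO samples and overlapping both single drugs. The log2 fold change in LEN+AI-10-104 against DMSO was -0.37 ± 0.09 (SE, n = 3 per condition, limma adjusted p = 0.024), a mean of 77.2% of DMSO. In the main fit, which has no replicate block, the call rests on single samples. The adjusted p in limma was 0.064 without DMSO replicate 1 and 0.080 without DMSO replicate 3. It was 0.085 without LEN+AI-10-104 replicate 1 and 0.087 without LEN+AI-10-104 replicate 2. Either drug alone gave a log2 fold change of -0.16, with limma adjusted p of 0.58 for LEN and 0.31 for AI-10-104. The interaction was -0.05 (95% interval -0.33 to 0.22, limma adjusted p = 0.87), so that a departure from the sum of the 2 drugs was not detectable.

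RGS2, an R4 protein selective for the alpha subunit of Gq, lay at 1.06, 1.10 and 1.22 RPKM in DMSO and at 1.63, 1.46 and 1.34 RPKM in AI-10-104. These ranges did not overlap, but the log2 fold change of 0.36 (95% interval 0.03 to 0.69) had an adjusted p of 0.19 in limma. LEN+AI-10-104 samples, at 1.18, 1.81 and 1.45 RPKM, overlapped LEN samples, at 1.10, 0.875 and 1.21 RPKM, with a log2 fold change of 0.44 (95% interval 0.11 to 0.76, limma adjusted p = 0.13). The gene had 29 to 58 reads per sample, the lowest depth of the 9 apart from RGS20 with AI-10-104. RGS1 spanned 3.29 to 4.02 RPKM in DMSO samples, 3.79 to 4.01 in LEN samples, 3.85 to 4.73 with AI-10-104 and 3.21 to 4.14 with the combination. The lowest adjusted p of RGS1 over the 5 comparisons was 0.16 in limma, for a log2 fold change of -0.22 in LEN+AI-10-104 against AI-10-104 (95% interval -0.45 to 0.01). RGS3, the longest of the R4 members, was at 2.54 to 3.18 RPKM over all samples, and its log2 fold changes were between -0.13 and 0.14, none called.

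None of the R12 genes was called in any comparison, and RGS10 passed the adjusted p but not the fold. RGS10, a small protein that is little more than an RGS domain, was at 13.7, 12.6 and 12.5 RPKM in DMSO and at 12.5, 12.1 and 12.1 RPKM in LEN. It was at 14.2, 14.4 and 14.9 RPKM with AI-10-104 and at 14.5, 14.0 and 13.7 RPKM with LEN+AI-10-104. The 6 samples with AI-10-104 thus lay above the 6 samples without it, the lowest of the former at 13.67 and the highest of the latter at 13.65 RPKM. The log2 fold change was 0.17 ± 0.04 in AI-10-104 against DMSO (SE, limma adjusted p = 0.047) and 0.20 ± 0.04 in LEN+AI-10-104 against LEN (SE, limma adjusted p = 0.025), both under the 0.32 needed for a call. RGS12 and RGS14 carry, beside the RGS domain, a GoLoco motif that holds Gi alpha subunits in their GDP-bound state. RGS12 was at 1.68 to 1.84 RPKM in the other 9 samples and at 2.24, 2.03 and 1.90 RPKM in LEN+AI-10-104, where the ranges no longer overlapped. Its log2 fold changes against DMSO, LEN and AI-10-104 were 0.22, 0.20 and 0.20, with adjusted p in limma of 0.091, 0.15 and 0.092. RGS14 was at 10.8 to 11.5 RPKM in LEN and 11.7 to 13.5 RPKM in LEN+AI-10-104, a log2 fold change of 0.17 (95% interval 0.04 to 0.31, limma adjusted p = 0.15).

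RGS19, the other RZ gene and a regulator of Gi alpha subunits also called GAIP, did not share the pattern of RGS20. DMSO samples had 1.75, 1.58 and 1.62 RPKM, LEN samples 1.98, 1.77 and 1.62, AI-10-104 samples 1.49, 1.61 and 1.73 and samples of the combination 2.22, 1.69 and 1.62. All 4 conditions overlapped. The log2 fold change in LEN+AI-10-104 against LEN was 0.03 (95% interval -0.23 to 0.28, limma adjusted p = 0.92).

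**Figure D2:**
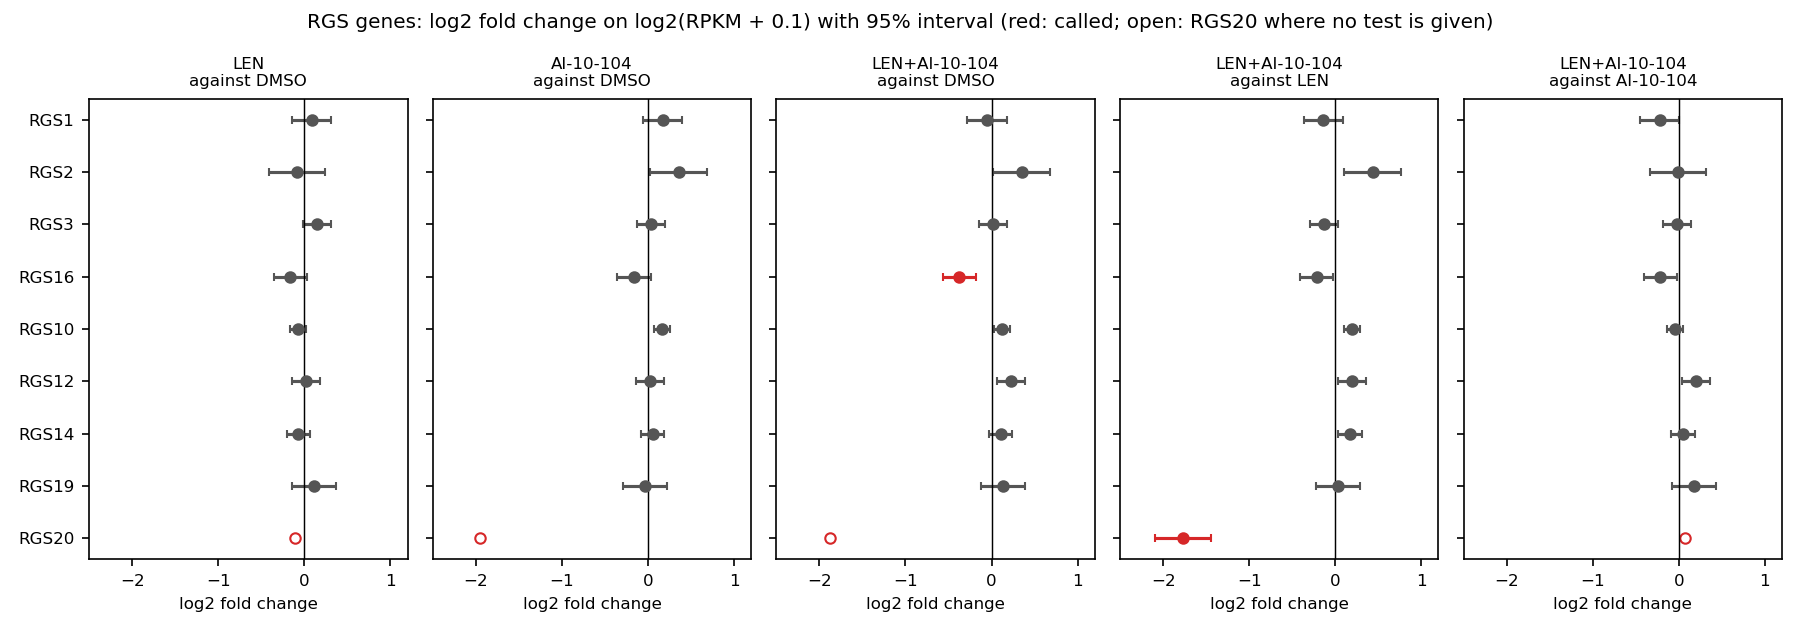
Log2 fold change on log2(RPKM + 0.1) (horizontal axes) of the 9 RGS genes in 5 comparisons, with 95% intervals from limma. Filled red points are called, RGS20 in LEN+AI-10-104 against LEN at -1.77 and RGS16 in LEN+AI-10-104 against DMSO at -0.37, and open points show RGS20 in the 4 comparisons where no test is given.

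AI-10-104 acts on RUNX proteins, so the windows around the start sites of the RGS genes were searched for a form of the RUNX core. The form was TGTGGT or its reverse complement ACCACA, on either strand. The form TGCGGT was not searched, and core below means TGTGGT. RefSeq windows of 300 bases, 250 before to 50 after the start (GRCh38.p14), were found for 8 of the 9 genes, 18 windows in all, RGS20 being the gene without one. The core was in 2 of the 18, 11.1%, beside 13.1% of 35116 windows of all genes and 9.88% of 11601 windows of the genes tested. RGS1 held a pair of cores, starting 170 and 90 bases before the start site, and RGS14 held 1, starting 97 bases before it. The window of RGS16, called in LEN+AI-10-104 against DMSO, held no TGTGGT core, and neither did either window of RGS10. The RGS16 window does hold ACCGCA, the reverse complement of TGCGGT, left in small letters below. It is therefore not free of every form of the core. A match says that the letters are present and says nothing about binding. The windows with a core and that of RGS16 are shown 5′ to 3′ on the strand of the gene with the core in capitals: RGS1 on the plus strand at chr1:192575523-192575822, RGS14 on the plus strand at chr5:177357674-177357973 and RGS16 on the minus strand at chr1:182604340-182604639.
RGS1: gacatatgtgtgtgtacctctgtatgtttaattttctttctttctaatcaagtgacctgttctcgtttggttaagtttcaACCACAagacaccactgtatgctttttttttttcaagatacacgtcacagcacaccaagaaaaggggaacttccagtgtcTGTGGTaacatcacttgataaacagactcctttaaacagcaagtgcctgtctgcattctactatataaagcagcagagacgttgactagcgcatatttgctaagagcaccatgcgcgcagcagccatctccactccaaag
RGS14: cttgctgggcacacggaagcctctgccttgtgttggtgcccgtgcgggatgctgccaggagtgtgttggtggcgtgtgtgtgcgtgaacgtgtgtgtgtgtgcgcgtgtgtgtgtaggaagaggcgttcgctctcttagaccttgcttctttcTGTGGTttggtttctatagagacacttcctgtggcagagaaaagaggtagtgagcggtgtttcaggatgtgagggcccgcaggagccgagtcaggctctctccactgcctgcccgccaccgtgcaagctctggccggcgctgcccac
RGS16: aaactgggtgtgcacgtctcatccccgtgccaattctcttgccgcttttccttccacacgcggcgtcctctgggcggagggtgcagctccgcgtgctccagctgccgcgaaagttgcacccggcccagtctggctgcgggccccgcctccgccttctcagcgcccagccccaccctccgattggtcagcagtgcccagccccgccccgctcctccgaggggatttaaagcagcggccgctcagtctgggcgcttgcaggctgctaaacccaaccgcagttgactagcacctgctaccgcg

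The gene bodies of the members lie apart from each other, with the R4 genes RGS1 and RGS2 both on chromosome 1 (GENCODE v44, GRCh38), at 192575763 to 192580024 and 192809039 to 192812275 on the plus strand. RGS16 lies on the same chromosome at 182598623 to 182604389 on the minus strand. RGS3 lies on chromosome 9 at 113444731 to 113597743, RGS10 on chromosome 10 at 119499817 to 119542719, RGS12 on chromosome 4 at 3293021 to 3439913, RGS14 on chromosome 5 at 177357924 to 177372596 and RGS19 on chromosome 20 at 64073181 to 64079988. In this annotation no exon of a member overlaps an exon of another gene. Of the other RGS genes described below, RGS5 shares 534 exon bases with a long noncoding RNA gene on the same strand. RGS6 shares 147 exon bases with such a gene on the opposite strand.

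Among annotated genes found by name in the matrix, none of the tested genes nearest to RGS20 was called in AI-10-104 against DMSO or in LEN+AI-10-104 against LEN. Of all tested genes 1.77% and 1.68% were called in these comparisons, so no call among so few neighbours says little about the locus. RGS20 lies on chromosome 8 at 53851795 to 53959303 on the plus strand. ATP6V1H, a subunit of the vacuolar proton pump 8.2 kb away, had log2 fold changes of -0.06 both in AI-10-104 against DMSO (limma adjusted p = 0.42) and in LEN+AI-10-104 against LEN (limma adjusted p = 0.43). TCEA1, a transcription elongation factor 7.2 kb away on the other side, had -0.0024 and -0.15 (limma adjusted p of 0.99 and 0.11), and in LEN+AI-10-104 against DMSO it had -0.21 (limma adjusted p = 0.027), under the fold needed. LYPLA1, a thioesterase 87.1 kb away, had 0.06 and -0.0092 (limma adjusted p of 0.56 and 0.95). OPRK1, the kappa opioid receptor 600.2 kb away, had at most 1 read in any sample and was not tested.

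Genes whose levels followed RGS20 most closely over the 12 samples were looked for by Pearson's r on log2(RPKM + 0.1) among 11240 tested genes. They were GRIK4, a kainate receptor subunit (r = 0.987), RGL1, an exchange factor for Ral (0.980), ADAM23, a disintegrin without protease activity (0.973), TIPARP, an ADP-ribosyltransferase (0.966), and SLCO4A1, an organic anion transporter (0.966). The 12 points fall into samples with and without AI-10-104, so r describes that split, and it has no test. Their means with AI-10-104 were 64.0%, 60.9%, 82.6%, 65.7% and 65.7% of DMSO in that order, against 21.4% for RGS20. In LEN+AI-10-104 against LEN the means were 66.4%, 56.9%, 84.6%, 61.4% and 68.9%, values that describe the choice and have no test. All 5 were more abundant than RGS20, with 6.92 RPKM or more in every DMSO sample.

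**Figure D3:**
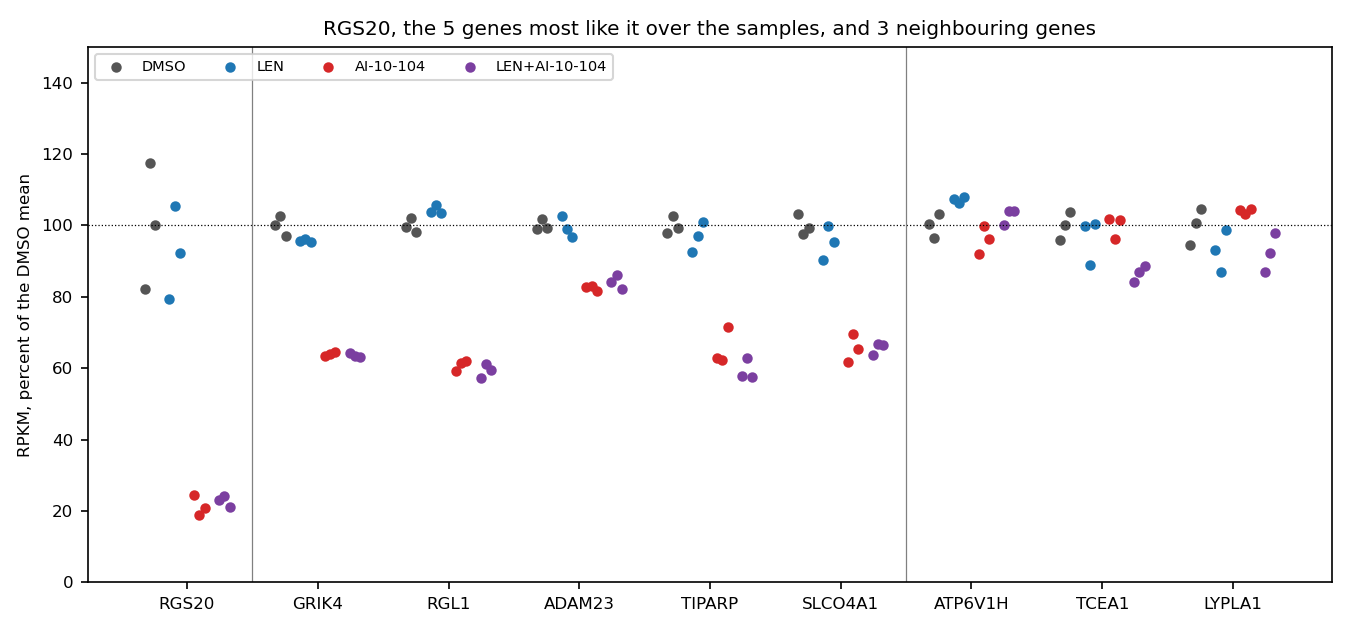
RPKM as a percentage of the gene's DMSO mean (vertical axis) in each sample for RGS20, for the 5 genes with the highest correlation to it, and for 3 neighbouring genes, coloured by condition. RGS20 with AI-10-104 alone averages 21.4%, the 5 correlated genes 60.9% to 82.6%, and the neighbours 95.9% to 104.1%. With LEN+AI-10-104 the averages are 22.8%, 59.3% to 84.1%, and 86.6% to 102.7%.

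Of 13 other RGS genes looked for, RGS5 alone reached a mean of 0.5 RPKM. It was at 0.768 to 0.993 RPKM in DMSO and 0.763 to 0.935 RPKM in the other conditions, and its log2 fold changes, from -0.11 to -0.02, were not called. RGS6, an R7 protein that works with the G beta 5 subunit, was too low for the fit but showed an order of conditions, and it is named here after its values were seen. LEN samples had 0.221, 0.196 and 0.192 RPKM, DMSO samples 0.143, 0.125 and 0.138, samples of the combination 0.102, 0.114 and 0.119 and AI-10-104 samples 0.0837, 0.0700 and 0.0721, from 42 to 150 reads each. No pair of conditions overlapped, with LEN the highest and AI-10-104 the lowest. In a voom fit of 12816 genes with at least 10 reads, chosen after seeing the data, RGS6 was higher with LEN, by 0.57 ± 0.12 against DMSO (SE, adjusted p = 0.0091) and by 0.58 ± 0.17 in LEN+AI-10-104 against AI-10-104 (SE, adjusted p = 0.024) on the log2 scale. It was lower with AI-10-104, at -0.85 ± 0.15 against DMSO (SE, adjusted p = 0.00084) and -0.84 ± 0.14 in LEN+AI-10-104 against LEN (SE, adjusted p = 0.00041). In LEN+AI-10-104 against DMSO it was not called (-0.27, adjusted p = 0.29), and the interaction was 0.01 (95% interval -0.42 to 0.44). That fit called 1.01%, 2.52%, 3.71%, 2.01% and 3.94% of its genes in LEN, AI-10-104 and LEN+AI-10-104 against DMSO and in LEN+AI-10-104 against LEN and against AI-10-104. With limma on log2(RPKM + 0.1) of every gene above 0, where the added 0.1 is close to the level of RGS6 itself, LEN+AI-10-104 against LEN alone was called (-0.51, adjusted p = 0.038). The deposited length of RGS6, 25167 bases, is 2.81 times its GENCODE v44 exon length. For the same reads the longer length gives a lower RPKM, by the same factor in every sample, but reads were not recounted on the GENCODE exons. RGS17, the third RZ gene, had 2 to 10 reads per sample, too few to compare. Its deposited length, 2014 bases, is 0.254 times its GENCODE v44 exon length of 7932.

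**Figure D4:**
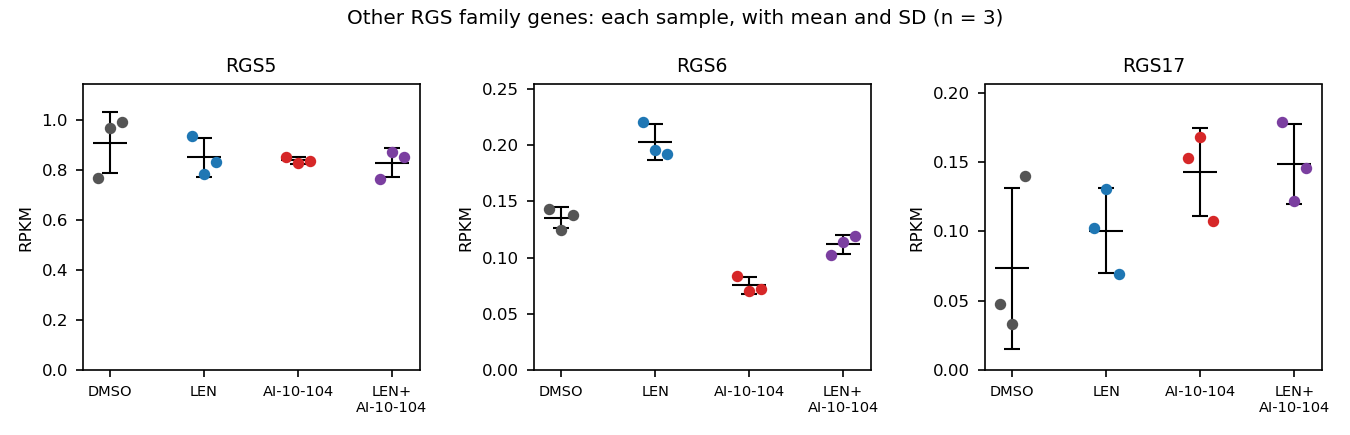
RPKM (vertical axes, from 0) of RGS5, RGS6 and RGS17 in each sample by condition, with the mean and SD of 3 samples as bars. RGS6 averages 0.203 RPKM with LEN, 0.135 with DMSO, 0.112 with LEN+AI-10-104 and 0.0753 with AI-10-104, with no overlap between conditions.

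The partners of RGS proteins were examined through a list of 70 genes of G protein signalling, of which 41 were tested. None was called in LEN against DMSO, in LEN+AI-10-104 against AI-10-104 or for an interaction, and 1 was called in each other comparison (SNX25 or GNG7), 2.44% of the 41, beside 1.77%, 2.94% and 1.68% of all genes in the same comparisons. Without AI-10-104 replicate 2, GNAI2 (0.23, limma adjusted p = 0.049) and GRK2 (0.19, limma adjusted p = 0.045) were called for an interaction, and ADCY6, ARHGEF1 and SNX25 in LEN+AI-10-104 against AI-10-104, at log2 fold changes of 0.33, 0.33 and -0.35. These are 2 and 3 of the 41 genes, beside 540 and 764 of all 11241 tested genes in the same fit, so they do not set the list apart. ADCY6 and ARHGEF1 are named after their values were seen. The median log2 fold change of the 41 genes was between 0.0042 and 0.0418 in the 5 comparisons.

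Of the alpha subunits, the substrates of RGS proteins, 7 of 16 were tested and none was called with all 12 samples. GNAS, the Gs subunit, was the most abundant, with a mean of 136.6 RPKM. GNAZ, the subunit on which RGS20 acts preferentially, was at 0.543 ± 0.0436 RPKM in DMSO and 0.546 ± 0.0389 in AI-10-104 (SD, n = 3), and its log2 fold change in LEN+AI-10-104 against LEN was 0.09 (95% interval -0.21 to 0.39, limma adjusted p = 0.76). GNAI2, a Gi subunit and substrate of most R4 and R12 members, was lowest in AI-10-104 samples at 54.2 ± 2.47 RPKM, followed by 60.7 ± 2.76 with DMSO, 64.5 ± 1.28 with LEN and 66.3 ± 0.988 with the combination (SD, n = 3). Its log2 fold changes of -0.16 in AI-10-104 against DMSO (limma adjusted p = 0.047) and 0.29 in LEN+AI-10-104 against AI-10-104 (limma adjusted p = 0.0023) passed the adjusted p but not the fold, and GNAI2 is named outside the rule for named genes, after its values were seen.

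Of the beta subunits 4 of 5 were tested with no call, and GNB1 was the most abundant at a mean of 174.1 RPKM. Of the gamma subunits 5 of 12 were tested. GNG5 was the most abundant at a mean of 129.1 RPKM and was not called. GNG7 spanned 8.13 to 9.08 RPKM with LEN, 9.09 to 9.35 with DMSO, 10.1 to 11.7 with AI-10-104 and 11.4 to 11.7 with the combination. It rose in LEN+AI-10-104 against LEN by 0.44 ± 0.06 on the log2 scale (SE, limma adjusted p = 0.0012) and against DMSO by 0.32 ± 0.06 (SE, limma adjusted p = 0.005). The second call sits on the fold threshold and is lost without DMSO replicate 3 or LEN+AI-10-104 replicate 3, with values of 0.3122 and 0.3111.

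Among 9 proteins with an RGS-like domain outside the RGS family, all tested, SNX25, a sorting nexin, was the one called. It spanned 8.83 to 9.47 RPKM with LEN, 9.73 to 10.3 with DMSO, 9.95 to 10.9 with the combination and 11.7 to 13.5 with AI-10-104. Its log2 fold change in AI-10-104 against DMSO was 0.35 ± 0.06 (SE, limma adjusted p = 0.005), and without AI-10-104 replicate 1 it was 0.3129, under the fold needed. ARHGEF12, which binds active G12 and G13 alpha subunits through such a domain, was the most abundant, at 80.4 ± 1.64 RPKM in DMSO and 68.3 ± 2.00 in AI-10-104 (SD, n = 3). Its log2 fold changes of -0.24 in AI-10-104 against DMSO and -0.31 in LEN+AI-10-104 against LEN had adjusted p of 0.022 and 0.0044 in limma and were under the fold needed.

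Among exchange factors and GoLoco proteins 3 of 6 were tested, among receptor kinases and arrestins 6 of 9, and among effectors 7 of 13, and none of these was called in any comparison with all 12 samples. Their most abundant members were RIC8A, a chaperone and exchange factor for alpha subunits, GRK2, a kinase of active receptors, and ADCY3, an adenylyl cyclase, at means of 34.3, 73.6 and 17.3 RPKM. GRK2 was at 79.1 to 81.8 RPKM in LEN+AI-10-104 and 67.5 to 75.5 RPKM in the other conditions, with a log2 fold change of 0.20 against DMSO (limma adjusted p = 0.018), under the fold needed.

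**Figure D5:**
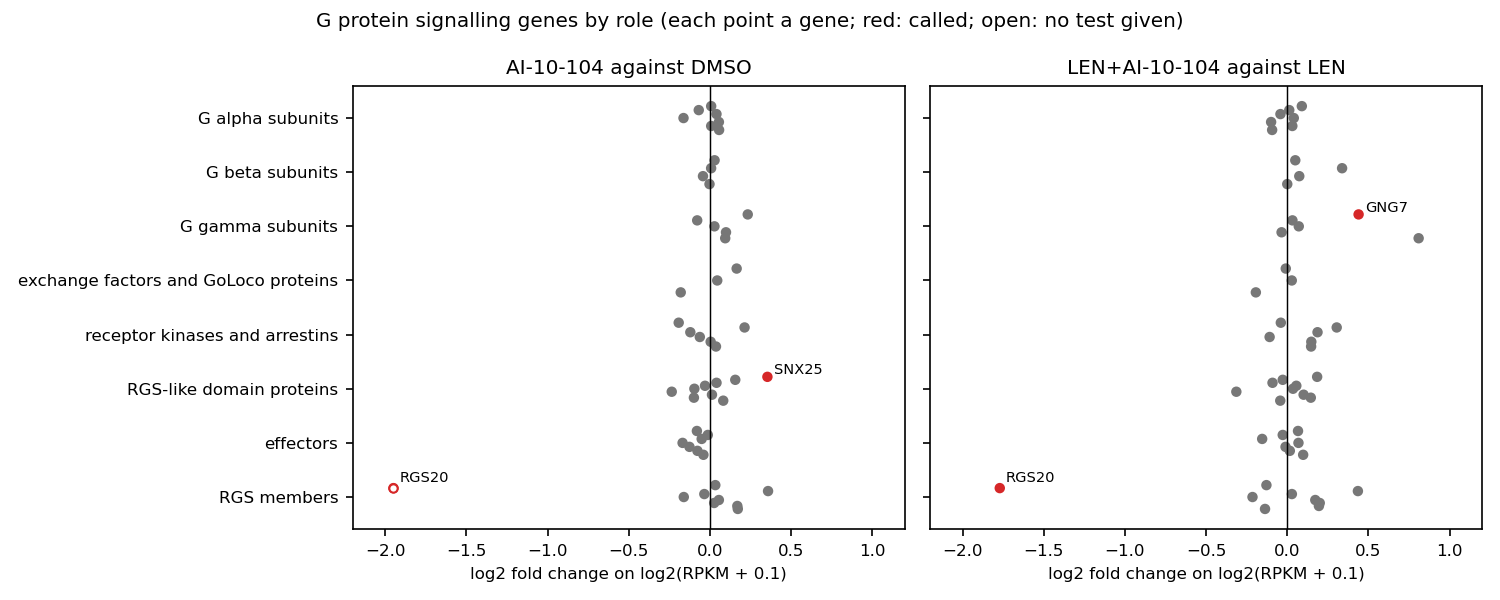
Log2 fold change on log2(RPKM + 0.1) (horizontal axes) of each tested gene of G protein signalling, by role, in AI-10-104 against DMSO and in LEN+AI-10-104 against LEN. RGS20, at -1.95 (open point, no test) and -1.77, lies apart from the other genes, and SNX25 at 0.35 and GNG7 at 0.44 are the others called.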

How the data were processed

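Polyadenylated RNA of OPM-1 cells was sequenced in 12 samples, 3 in each of 4 conditions, from libraries prepared with a directional kit. Per the labels and the methods, the authors mapped reads to GRCh38 with STAR, and the labels also name FastQC, Cuffnorm and DESeq2. They deposited RPKM values for 38478 genes beside gene lengths, and 28 gene names are spreadsheet date numbers. Values times length gave whole reads in every sample (100% of values, tolerance 0.05), which put the precision of low genes in reads. Reads without molecular identifiers cover counting error only. No column was left unused and no sample was left out.

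The test was limma 3.58.1 (R 4.3.3), applied to log2(RPKM + 0.1) of genes averaging 0.5 RPKM or more, fitting all 12 samples with a mean for each condition, a variance trend and Benjamini-Hochberg adjustment over all 11241 genes. Calls needed an adjusted p of 0.05 and an absolute log2 fold change of 0.32, and interactions the adjusted p alone. The procedure was also run on simulated reads, with the same spread beyond counting error for every gene and no outlying sample. It called 91 of 96 genes changed by a fold of 2 and 85 of 104 changed by 1.5, with 3 false calls. The real samples differ from this setting, so these numbers are not error rates of the calls above. The members and gene lists were chosen with earlier results of these data known. Genes named are the 9 members, other RGS genes with at least 0.5 RPKM, and in each role the most abundant gene and every gene called. The rule also names the 5 genes most correlated with RGS20 and the nearest 2 annotated genes on each side of it that are found in the matrix. RGS6, RGS17, GNAI2, GNAZ, ADCY6 and ARHGEF1 are not covered by this rule and were added with their values known. Gene positions are from GENCODE v44 and start-site windows from RefSeq (GRCh38.p14). Tables were handled with Python 3.11.15, pandas 2.3.3 and numpy 2.4.6, and figures drawn with matplotlib 3.10.9.

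Alternatives were quantile normalization, median-ratio rescaling, pseudocounts of 0.01 and 1, testing every gene above 0 or those from 1 RPKM, fitting the compared conditions alone, a replicate block, dropping the trend or the fold threshold, and leaving out each sample. Limma's voom on the recovered reads, for the same genes and for genes with at least 10 reads, was chosen after seeing the data.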

Additional observations from a re-analysis of the deposited data

How the results depend on the processing

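The fall of RGS20 in LEN+AI-10-104 against LEN was called under all 12 settings and without each of 12 samples, at log2 fold changes of -2.02 (voom) to -0.89 (pseudocount 1). These runs show how far the value depends on the processing. They are not independent evidence of the fall, for which RGS20 was chosen. No result was reversed. Calls of members below leave out RGS20. With no fold threshold, RGS10 was added to the calls in AI-10-104 against DMSO and in LEN+AI-10-104 against LEN. This setting also called 4, 4, 2 and 9 genes of the G protein list in AI-10-104 and LEN+AI-10-104 against DMSO and in LEN+AI-10-104 against LEN and against AI-10-104. Over all genes it gave 127, 512 and 971 calls for LEN, AI-10-104 and LEN+AI-10-104 against DMSO, 519 against LEN and 1683 against AI-10-104. With any value above 0 tested, RGS16 was not called in LEN+AI-10-104 against DMSO. It had an adjusted p of 0.064 in limma, its SE being 0.092 in place of 0.0883. Of the G protein list in LEN+AI-10-104 against DMSO, 0 genes were called with pseudocount 1, median-ratio rescaling or quantile normalization, where GNG7 was at 0.2966, 0.3015 and 0.2952, and 2 with pseudocount 0.01. In LEN+AI-10-104 against LEN 2 were called with median-ratio rescaling, quantile normalization or the replicate block, and against AI-10-104 1 with no variance trend. The compared conditions alone gave 113 calls over all genes in AI-10-104 against DMSO and 243 in LEN+AI-10-104 against AI-10-104. Voom with at least 10 reads gave 129 for LEN and 323 for AI-10-104 against DMSO. Interactions were called for 1 gene with no trend and for 3 with either voom fit. The causes of these shifts were not tested.

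Without each sample in turn, RGS20 in LEN+AI-10-104 against LEN stayed between -1.87 and -1.68. RGS16 in LEN+AI-10-104 against DMSO lost its call without 4 of the 12 samples. The G protein list had 0 to 1 calls in AI-10-104 against DMSO, 0 to 2 in LEN+AI-10-104 against DMSO, 1 to 2 against LEN, 0 to 3 against AI-10-104 and 0 to 2 for the interaction. Over all genes the calls ran from 35 to 69 for LEN against DMSO, lowest without LEN replicate 1 (35), LEN replicate 3 (41), DMSO replicate 2 (46) and DMSO replicate 3 (48). They ran from 119 to 443 for AI-10-104 against DMSO, at 119 without AI-10-104 replicate 1, 127 without DMSO replicate 1, 129 without AI-10-104 replicate 3 and 443 without AI-10-104 replicate 2. They ran from 183 to 764 for LEN+AI-10-104 against AI-10-104, at 183, 764 and 213 without AI-10-104 replicates 1, 2 and 3 and 221 without LEN+AI-10-104 replicate 1. For the interaction they ran from 0 to 540, at 540 without AI-10-104 replicate 2 and 2 without LEN+AI-10-104 replicate 3.

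Samples with the same replicate number correlated weakly in their deviations from the condition means (mean r of 0.0522, from -0.0272 to 0.155, over 18 pairs). Samples with different numbers had a lower mean r of -0.0261 (from -0.133 to 0.059, over 36 pairs). The main fit has no replicate block, and whether samples of the same number were paired was not tested. With the replicate block RGS20 in LEN+AI-10-104 against LEN stayed at -1.77 (limma adjusted p = 0.00024), RGS16 in LEN+AI-10-104 against DMSO had an adjusted p of 0.0021, and calls over all genes went from 199 to 228 for AI-10-104 against DMSO. Depth limits RGS20 with AI-10-104 (22 to 31 reads), RGS2 (29 to 58 reads) and RGS17 (2 to 10 reads). The fall of RGS20 in percent therefore carries counting error beside the spread between samples.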
